A study of Mus musculus with 32 samples.

Results

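Expression of the peroxisome proliferator-activated receptors Ppara, Ppard and Pparg, of their retinoid X receptor partners Rxra, Rxrb and Rxrg, and of the coregulators Ppargc1a, Ppargc1b, Ncor1 and Ncoa1 was examined in mouse mesothelioma. The genes were taken by name, as the PPARs with their obligate partners and main coregulators, and the rule used no measured value. Of the 10 genes, 9 had a row among 39676 genes, and Ncoa1 is not analysed here. RNA from 32 whole tumors was sequenced, each from 1 mouse, with 8 tumors in each of 4 groups. AB1 tumors grew in BALB/c mice and AE17 tumors in C57BL/6 mice, either in the pleural cavity (intrapleural, IPL) or under the skin of the flank (subcutaneous, SC). Both lines are mesothelioma cells of mouse origin, and the mice of all 4 groups were untreated females of 8 to 10 weeks. They were given 500000 AB1 or 1000000 AE17 cells, and tumors were taken on day 10, with the lungs and surrounding tissue removed. Model, mouse strain and the number of cells given go together in this design and cannot be told apart. The study compared the sites to look for regulators of mesothelioma invasion, and it proposed PPARα and PPARγ from these same data. Here the sites were compared for the levels of the genes named above, and the models for whether site differences were shared.

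PPARs are nuclear receptors that are switched on by fatty acids and their derivatives. Each PPAR binds DNA as a pair with an RXR, which is the receptor for 9-cis retinoic acid and also pairs with retinoic acid, vitamin D, thyroid hormone and liver X receptors. PPARα drives fatty acid oxidation in liver, heart, muscle and brown fat. PPARγ is the master regulator of fat cells and is also used by macrophages, and PPARδ is found in most tissues. Without ligand, corepressors such as NCoR1 hold target genes down through histone deacetylases, and with ligand they give way to coactivators such as PGC-1α and PGC-1β, which raise mitochondrial and oxidative genes.

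Libraries held between 15432258 and 20649645 counts, so that 3 counts, taken as the smallest detectable number, stood for 0.145 to 0.194 CPM (counts per 1000000 counts of a library). Counting error alone is covered by this limit. AB1 IPL replicates 2 and 4 and AE17 IPL replicate 5 were the libraries least like their groups, with a median correlation to the others of 0.951, 0.955 and 0.966 against at most 0.988. All AB1 IPL libraries were run in lane 3, which also held AB1 SC replicates 1 and 2, and AB1 SC replicates 3 to 8 were in lane 2. All AE17 SC libraries were run in lane 1, with 3 AE17 IPL libraries, and the other 5 AE17 IPL libraries in lane 2. Genes of other tissues were measured in these tumors. The summed level of 11 skeletal muscle markers of 12 listed ranged from 123 to 5419 CPM in AB1 IPL tumors, 55.1 to 553 CPM in AB1 SC, 57.4 to 941 CPM in AE17 IPL and 46.2 to 1520 CPM in AE17 SC tumors. The 7 mesothelial markers of 10 listed that had a row summed to a median of 2.32 CPM in AB1 IPL, 2.00 CPM in AB1 SC, 17.3 CPM in AE17 IPL and 9.50 CPM in AE17 SC tumors, and Upk3b and Lrrn4 did not pass 3 counts in any SC tumor. AB1 IPL replicate 2 had the highest mesothelial sum of all 32 tumors, at 95.7 CPM, with at most 4.54 CPM in the other AB1 IPL tumors. In whole tumors, fewer cells of a type and less RNA per cell cannot be told apart.

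In GRCm38, Ppara lies at chr15:85734983-85802819, Pparg at chr6:115360951-115490399, Ppard at chr17:28232700-28301474, Rxra at chr2:27676440-27762957, Rxrb at chr17:34031812-34038399 and Rxrg at chr1:167598384-167639623, all on the plus strand. Ppargc1a (chr5:51454250-51567726) and Ncor1 (chr11:62316426-62458541) lie on the minus strand.

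Per kilobase of exon, the corepressor and the ubiquitous receptors were the most abundant. Mean levels over 32 tumors were 16.99 RPKM (CPM per kilobase of exon) for Ncor1, 15.9 RPKM for Rxrb, 13.04 RPKM for Rxra and 7.46 RPKM for Ppard. Pparg followed with 1.79 RPKM and Ppargc1b with 1.20 RPKM, and Ppargc1a (0.331 RPKM), Rxrg (0.155 RPKM) and Ppara (0.0554 RPKM) were the lowest. The ranges of all neighbors in this order overlapped. Within a tumor the order was steadier, since Rxrb was above Rxra in 31 of 32 tumors, Rxra above Ppard in 29, Ppard above Pparg in 32 and Ppargc1b above Ppargc1a in 32. Ncor1 was above Rxrb in 26 tumors, Pparg above Ppargc1b in 23, Ppargc1a above Rxrg in 20 and Rxrg above Ppara in 23.

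**Figure D1:**
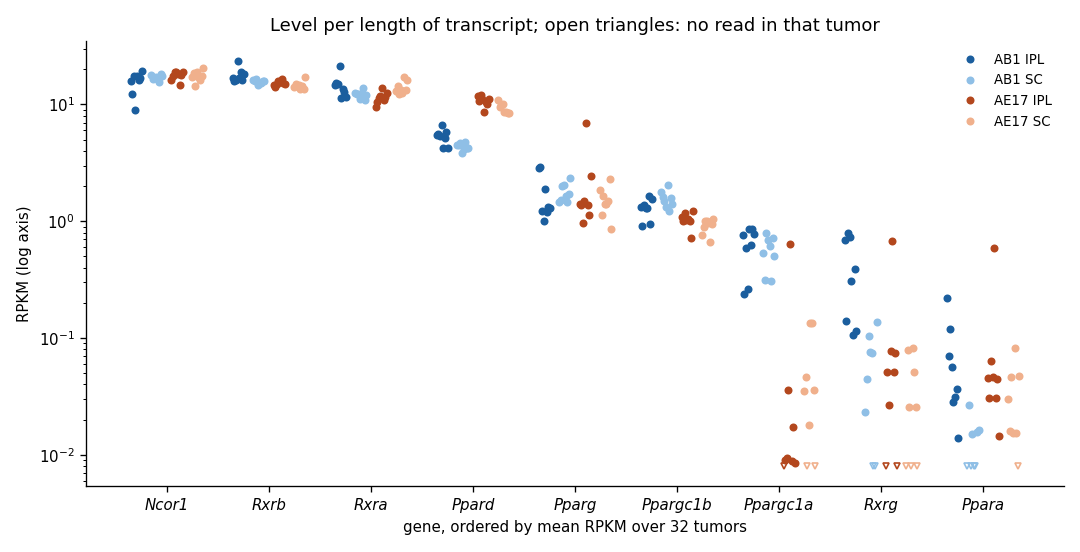
Level of each gene per kilobase of exon (RPKM, log axis) in each of the 32 tumors, 1 point per tumor, colored by group and ordered by the mean. Ncor1, Rxrb and Rxra sit at the top with means of 16.99, 15.87 and 13.04 RPKM, and Ppargc1a, Rxrg and Ppara have tumors without any read.

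PPARδ made up most of the PPAR message in every tumor. Its share of the summed RPKM of the 3 PPARs had a median of 78.3% in AB1 IPL, 71.3% in AB1 SC, 88.2% in AE17 IPL and 85.4% in AE17 SC tumors, and the lowest share of any tumor was 53.4%. Rxra made up a median of 44.6%, 43.5%, 42.7% and 48.1% of the RXR message in the same order, so that the main RXR by level was Rxrb.

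Ppard, the most widely expressed PPAR, was measured at 32.01 CPM in the lowest AB1 IPL tumor, 41.0 CPM at the median and 50.3 CPM in the highest, against 29.1, 32.8 and 35.5 CPM in AB1 SC tumors. The AB1 groups overlapped, with 2 IPL tumors (32.01 and 32.02 CPM) inside the SC range and 6 above it. The level was 0.26 ± 0.085 higher in IPL tumors on the log2 scale (SE, edgeR adjusted p = 0.0323), and it was the sole member called among 7 tested in AB1, where 23% of all genes were called. This call was lost in 8 of the 16 edgeR fits that left out 1 tumor (IPL replicates 1, 3, 4 and 7 and SC replicates 4, 5, 7 and 8), with adjusted p between 0.00861 and 0.0801. Within lane 3 the difference was 0.19 (edgeR adjusted p = 0.673), and without the 3 libraries least like their groups it was 0.19 (edgeR adjusted p = 0.0978).

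In AE17 tumors Ppard lay at 65.1, 81.9 and 91.1 CPM (lowest, median and highest) in the pleural cavity and at 64.0, 68.5 and 82.4 CPM under the skin. These ranges overlapped over most of their length. The difference was 0.21 ± 0.073 on the log2 scale (SE, edgeR adjusted p = 0.0874) and passed the threshold, at 0.24 (edgeR adjusted p = 0.0318), without AE17 IPL replicate 5, and at 0.24 (edgeR adjusted p = 0.0326) without AE17 SC replicate 1. It also passed with all tumors by limma-voom with quality weights, named limma-voom from here on (0.23, adjusted p = 0.00602). The site effects of the models differed by 0.07 ± 0.111 (SE, edgeR adjusted p = 0.711).

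**Figure D2:**
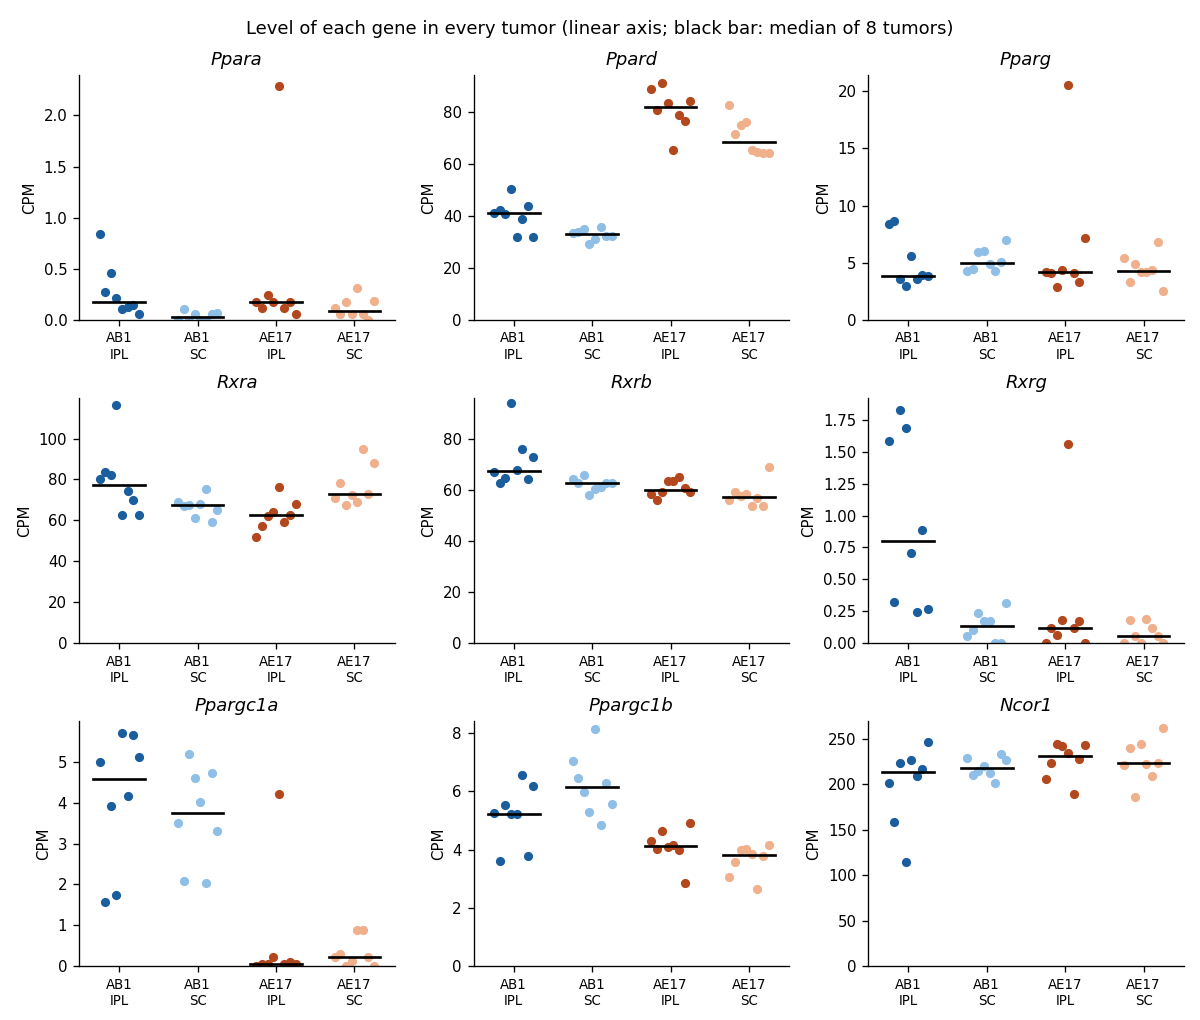
Level in CPM of the 9 genes in each tumor, with 8 points per group, 1 per tumor, and a black bar at the median. Every AE17 tumor lies above every AB1 tumor for Ppard, Ppargc1a is at or below 0.881 CPM in AE17 tumors apart from AE17 IPL replicate 5, and that tumor also stands apart for Ppara, Pparg and Rxrg.

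Pparg, the receptor of fat cells and of some macrophages, was not called for site in either model. It lay at 2.99, 3.87 and 8.62 CPM in AB1 IPL tumors and at 4.30, 4.976 and 6.997 CPM in AB1 SC tumors (lowest, median and highest). AB1 IPL replicates 1 and 2 were the highest of the AB1 tumors, at 8.38 and 8.62 CPM, while 5 other AB1 IPL tumors were below every AB1 SC tumor. The same 2 tumors held the highest sums of 9 white adipocyte markers in AB1, at 243.8 and 163.2 CPM against at most 58.1 CPM in the other 14, and the part of fat cells in their Pparg level was not tested. The log2 difference in AB1 was −0.08 ± 0.224 (SE, edgeR adjusted p = 0.83).

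In AE17 tumors Pparg lay at 2.88, 4.15 and 20.55 CPM in the pleural cavity and at 2.56, 4.28 and 6.78 CPM under the skin. The highest value came from AE17 IPL replicate 5, and the next tumor of that group was at 7.18 CPM. The difference of 0.51 ± 0.370 (SE, edgeR adjusted p = 0.405) became −0.05 (edgeR adjusted p = 0.904) without that tumor. The variation of Pparg between tumors of a group, given as the biological coefficient of variation, was 0.427 over all 32 tumors, higher than in 91.6% of genes.

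Ppara, the receptor of fatty acid oxidation, was close to the limit of detection. The AB1 IPL tumors held 1 to 17 reads (0.0528 to 0.843 CPM, median 0.179) and the AB1 SC tumors 0 to 2 reads (at most 0.102 CPM, median 0.0291). In sum this was 43 against 5 reads, and 5 of the 8 IPL tumors held more reads than any SC tumor. By CPM 7 were above every SC tumor, of which replicates 5 and 6 held 2 reads, as SC replicate 2 did. Too few reads were present for the fit across all genes, and an exact two-sided permutation test of the log2 CPM (prior count 2) gave a difference of 1.21 (p = 0.00109, where the smallest possible p is 0.000155). Within lane 3 the difference was 1.09 (exact permutation p = 0.111). In all 5 such tests were made, for Ppara and Rxrg in both models and for Ppargc1a in AE17, and their p values are unadjusted. In AE17 the summed reads of Ppara were 56 in IPL tumors, 38 of them from replicate 5, against 16 in SC tumors. The difference was 0.65 (exact permutation p = 0.174) and 0.04 within lane 1 (exact permutation p = 0.994). With 1 tumor left out it ran from 0.251 to 0.797.

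Among the partner receptors, the site differences of Rxra had opposite signs in AB1 and AE17, and the difference between them passed the test. Rxra lay at 62.5, 77.3 and 117 CPM in AB1 IPL tumors against 59.2, 67.3 and 75.3 CPM in AB1 SC tumors, and at 51.7, 62.5 and 76.1 CPM in AE17 IPL tumors against 67.4, 72.8 and 94.7 CPM in AE17 SC tumors (lowest, median and highest). The groups overlapped in both models, with 6 of 8 AE17 IPL tumors below every AE17 SC tumor. Neither difference passed the threshold by itself, at 0.22 ± 0.106 in AB1 (SE, edgeR adjusted p = 0.157) and −0.28 ± 0.083 in AE17 (SE, edgeR adjusted p = 0.0547). Without AB1 IPL replicate 4, the highest tumor, the AB1 value was 0.091 (edgeR adjusted p = 0.413). The difference between them was 0.51 ± 0.134 on the log2 scale (SE, edgeR adjusted p = 0.00722), where 20.5% of all genes were called for this interaction.

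The interaction of Rxra stayed past the threshold in each of the 32 fits that left out 1 tumor, with adjusted p between 0.00349 and 0.0144 in edgeR. Within single lanes the site differences were 0.15 in AB1 (lane 3) and −0.27 in AE17 (lane 1). With the lane as a covariate the interaction was 0.48 (edgeR adjusted p = 0.234). In AE17 alone, DESeq2 gave −0.29 with an adjusted p of 0.0213, and edgeR fits without IPL replicate 5, SC replicate 1 or SC replicate 3 gave −0.34, −0.30 and −0.31 (adjusted p = 0.021, 0.034 and 0.0351), while without SC replicate 6 the value was −0.23 (edgeR adjusted p = 0.104).

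Rxrb, the other ubiquitous RXR, varied the least of these genes between tumors of a group. Its lowest, median and highest levels were 62.7, 67.4 and 94.0 CPM in AB1 IPL, 58.1, 62.7 and 66.0 CPM in AB1 SC, 56.0, 60.1 and 65.2 CPM in AE17 IPL and 53.7, 57.3 and 69.0 CPM in AE17 SC tumors. The groups overlapped throughout, and the biological coefficient of variation of 0.093 was above that of only 6.2% of genes. The log2 site differences were 0.16 ± 0.071 in AB1 (SE, edgeR adjusted p = 0.113) and 0.07 ± 0.052 in AE17 (SE, edgeR adjusted p = 0.397). Without AB1 IPL replicate 4, the highest tumor, the AB1 difference was 0.071 (edgeR adjusted p = 0.299). In the AB1 comparison the threshold was passed without IPL replicate 2 (0.20, edgeR adjusted p = 0.0357) and in an edgeR fit of all 32 tumors (0.18, adjusted p = 0.027).

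Rxrg, the RXR known from skeletal muscle and brain, was scarce but reached its highest levels in AB1 tumors of the pleural cavity. The 8 AB1 IPL tumors held 0.241 to 1.83 CPM (4 to 36 reads, median 0.798 CPM) and the AB1 SC tumors at most 0.312 CPM (0 to 5 reads, median 0.137 CPM). Of the IPL tumors 6 were above every SC tumor, and the summed reads were 146 against 18. The log2 difference was 1.95 (exact two-sided permutation p = 0.000622), and within lane 3 it was 2.17 (exact permutation p = 0.0222, the smallest this lane allows). An edgeR fit without a filter on low counts gave 2.79 for Rxrg (adjusted p = 0.00278) and 2.75 for Ppara (adjusted p = 0.00902) in AB1. In AE17 such an edgeR fit gave 1.77 for Rxrg (adjusted p = 0.311) and 1.73 for Ppara (adjusted p = 0.236). In AE17 the summed reads of Rxrg were 37 in IPL tumors, 26 of them from replicate 5, against 10 in SC tumors. The log2 difference was 0.53 (exact permutation p = 0.34) and 0.16 within lane 1 (exact permutation p = 0.818). With 1 tumor left out it ran from 0.138 to 0.692.

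The levels of Rxrg and Ppara were set beside the sums of muscle and brown fat markers. The AB1 IPL tumors with the 5 highest sums of skeletal muscle markers (replicates 4, 3, 1, 7 and 5, with 5419, 5351, 3718, 3340 and 1851 CPM) were those with the 5 highest Rxrg levels (1.68, 1.83, 1.59, 0.889 and 0.707 CPM). The other 3 AB1 IPL tumors had muscle sums of 123, 651 and 1332 CPM and Rxrg levels of 0.323, 0.264 and 0.241 CPM. AE17 SC replicates 5, 6 and 7 had muscle sums of 1353, 1520 and 1352 CPM but Rxrg levels of 0.189, 0.117 and 0.0589 CPM. The 3 AB1 IPL tumors with the highest brown adipocyte sums (19.6 to 29.6 CPM, 4 of 6 listed markers with a row), replicates 1, 3 and 4, had 3 of the 4 highest Ppara levels of AB1 tumors. The remaining one, replicate 2, had the third highest Ppara level (0.269 CPM) with the lowest brown adipocyte sum (3.18 CPM) and muscle sum of its group. In AB1 IPL tumors the brown adipocyte sum was mostly Cox8b (0.808 to 21.3 CPM) and Cox7a1 (1.75 to 5.43 CPM), subunits of respiration that striated muscle also uses, and is no separate measure of brown fat there. Ucp1, which defines brown fat, had a median of 0.187 CPM in these tumors and reached 7.68 CPM in replicate 1, the tumor with the highest Ppara level in AB1 (0.843 CPM). Of the muscle markers 10 of 11 were called higher in AB1 IPL tumors and 0 of 11 in AE17 IPL tumors by edgeR, beside 23% and 5.73% of all genes called in both directions together. The part of these tissues in the levels of Rxrg and Ppara was not tested.

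AE17 IPL replicate 5 had by far the most brown and white fat genes. Its 4 brown adipocyte markers summed to 104 CPM, against at most 2.52 CPM in the other 7 tumors of the group, and its Ucp1, the uncoupling protein that defines brown fat, was at 86.8 CPM with a group median of 0.0588 CPM. Its 9 white adipocyte markers of 10 listed summed to 695 CPM against at most 50.5 CPM, and its 9 cardiac muscle markers of 10 listed to 226 CPM against at most 42.5 CPM. Its levels of Ppara (2.28 CPM), Pparg (20.55 CPM), Rxrg (1.56 CPM) and Ppargc1a (4.21 CPM) were the highest of the 16 AE17 tumors for each gene.

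**Figure D3:**
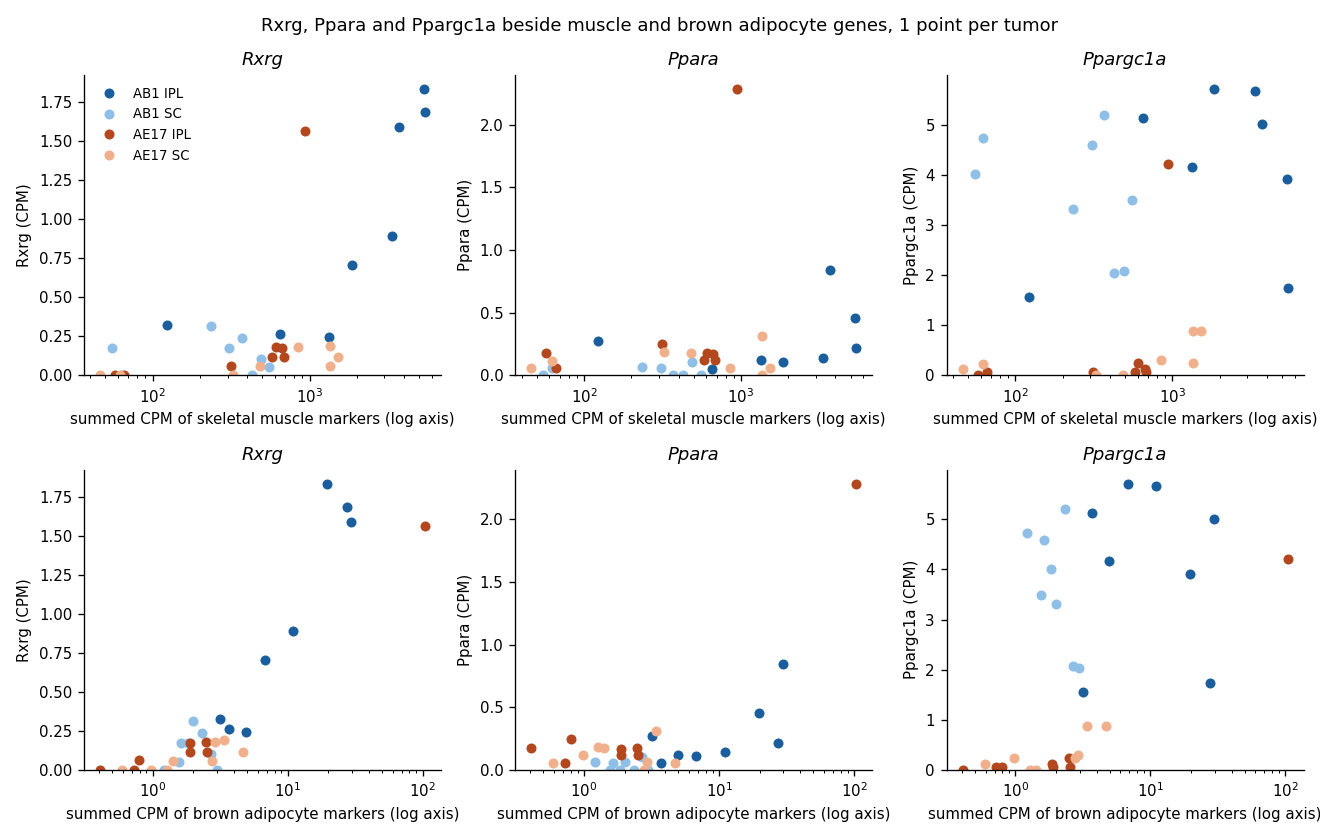
Rxrg, Ppara and Ppargc1a (CPM, vertical axes) against the summed CPM of skeletal muscle markers (upper row) and brown adipocyte markers (lower row), both on log axes, with 1 point per tumor colored by group. The AB1 IPL tumors with muscle sums from 1851 to 5419 CPM hold the 5 highest Rxrg levels of the AB1 tumors, and AE17 IPL replicate 5 lies alone at 104 CPM of brown adipocyte genes.

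Ppargc1a, which encodes PGC-1α, was higher in AB1 than in AE17 tumors at both sites. It lay at 1.56, 4.58 and 5.71 CPM in AB1 IPL tumors and at 2.04, 3.75 and 5.20 CPM in AB1 SC tumors (lowest, median and highest). In AE17 IPL tumors 7 of 8 were at or below 0.237 CPM, and replicate 5 was at 4.21 CPM. The AE17 SC tumors lay between 0 and 0.881 CPM, with a median of 0.233 CPM, so that SC tumors of the models did not overlap. The site difference was 0.13 ± 0.277 in AB1 (SE, edgeR adjusted p = 0.763). In AE17 the gene fell below the filter, with 80 reads in IPL tumors, of which 70 came from replicate 5, and 44 in SC tumors. The difference of mean log2 CPM was −0.26 (exact two-sided permutation p = 0.743) and −0.82 within lane 1 (exact permutation p = 0.261). With 1 tumor left out it ran from −0.829 to −0.037. An edgeR fit without a filter on low counts gave 0.84 in AE17 (adjusted p = 0.71), the opposite sign.

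AB1 tumors held more Ppargc1a than AE17 tumors under the skin (log2 difference 3.44 ± 0.726, SE, edgeR adjusted p = 0.000144) and in the pleural cavity (2.75 ± 0.676, SE, edgeR adjusted p = 0.000716). Without AE17 IPL replicate 5 the other 7 AE17 IPL tumors held 0 to 4 reads each, mostly below the limit of 3 counts. The fitted pleural difference (5.48) and interaction (2.04, edgeR adjusted p = 0.0571, against −0.69 with that tumor, edgeR adjusted p = 0.67) then depend on the prior count and are no measure of size. Both differences were called in all 32 fits that left out 1 tumor. With the lane as a covariate they were 0.10 under the skin (edgeR adjusted p = 0.997) and 2.68 in the pleural cavity (edgeR adjusted p = 0.0945). No lane held both models at the same site. In lane 2, which held both models at different sites, the 6 AB1 SC tumors lay between 2.04 and 5.20 CPM, and the 5 AE17 IPL tumors had a median of 0.0612 CPM and a highest value of 4.21 CPM in replicate 5.

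Ppargc1b, which encodes the related PGC-1β, was also called higher in AB1 tumors. It lay at 3.61, 5.24 and 6.58 CPM in AB1 IPL, 4.84, 6.14 and 8.13 CPM in AB1 SC, 2.85, 4.12 and 4.90 CPM in AE17 IPL and 2.639, 3.804 and 4.142 CPM in AE17 SC tumors (lowest, median and highest). Every AB1 SC tumor was above every AE17 SC tumor, while the IPL tumors of the models overlapped. AB1 exceeded AE17 by 0.76 ± 0.131 on the log2 scale under the skin (SE, edgeR adjusted p = 9.23e-06) and by 0.29 ± 0.130 in the pleural cavity (SE, edgeR adjusted p = 0.0489). The second call was lost in 20 of the 32 fits that left out 1 tumor, and with the lane as a covariate the values were 0.61 (edgeR adjusted p = 0.0509) and 0.11 (edgeR adjusted p = 0.786). The site differences were −0.29 ± 0.138 in AB1 (SE, edgeR adjusted p = 0.143) and 0.19 ± 0.124 in AE17 (SE, edgeR adjusted p = 0.357), and the interaction of −0.46 did not pass the threshold (edgeR adjusted p = 0.0728), although it did without AB1 IPL replicate 6 (−0.51, edgeR adjusted p = 0.0472) or AE17 IPL replicate 7 (−0.53, edgeR adjusted p = 0.0372).

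Ncor1, the corepressor, was called in none of the 5 comparisons by edgeR at an adjusted p under 0.05. It was at an unadjusted p under 0.05 in 1 of them, where AB1 was lower than AE17 in the pleural cavity (−0.21, edgeR adjusted p = 0.0647, and between −0.26 and −0.24 with adjusted p from 0.0254 to 0.0458 without AB1 IPL replicate 3, 5 or 8 or AE17 IPL replicate 6). Its medians were 213.0 CPM in AB1 IPL, 218 CPM in AB1 SC, 231 CPM in AE17 IPL and 223 CPM in AE17 SC tumors, and its site differences were −0.16 ± 0.119 in AB1 (SE, edgeR adjusted p = 0.355) and 0.01 ± 0.069 in AE17 (SE, edgeR adjusted p = 0.934). The lowest values were 115 CPM in AB1 IPL replicate 4 and 159 CPM in AB1 IPL replicate 2. In both libraries the deviation of a gene from its group median fell with exon length across genes (Spearman rho −0.204 and −0.172). Ncor1 has the longest exons of the 9 genes, at 12811 bases. A like rho was found in AB1 IPL replicate 6 (−0.16), with Ncor1 at 208.8 CPM, and the lowest in AE17 IPL replicate 6 (−0.252), with Ncor1 at 189.6 CPM, the lowest of its group. AB1 IPL replicate 4 also held the highest Rxra (117 CPM) and Rxrb (94.0 CPM) of all 32 tumors. The part of gene length in these values was not tested. On RPKM, the ratio of Ncor1 to Ppargc1b, corepressor to coactivator, had a median of 12.5 in AB1 IPL, 11.4 in AB1 SC, 16.9 in AE17 IPL and 19.3 in AE17 SC tumors.

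Between the models Ppard did not overlap at either site. AE17 tumors held more than AB1 tumors in each of the 8 against 8 tumors at both sites, by 1.12 ± 0.080 on the log2 scale under the skin (log2 fold change −1.12 for AB1 against AE17, SE, edgeR adjusted p = 1.55e-13) and by 1.05 ± 0.079 in the pleural cavity (−1.05, SE, edgeR adjusted p = 5.53e-13). With the lane as a covariate the fold changes were −1.16 and −1.09 and stayed past the threshold. In lane 2 the 6 AB1 SC tumors lay between 29.1 and 35.5 CPM and the 5 AE17 IPL tumors between 65.1 and 91.1 CPM.

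In the pleural cavity Rxra (0.30 ± 0.095, SE, edgeR adjusted p = 0.00702) and Rxrb (0.19 ± 0.060, SE, edgeR adjusted p = 0.00602) were also higher in AB1 than in AE17 tumors, and under the skin neither was called (−0.22 with an edgeR adjusted p of 0.0524 and 0.09 with an edgeR adjusted p of 0.222). Rxra passed under the skin in 9 of the 32 edgeR fits that left out 1 tumor, with adjusted p from 0.017 to 0.136 over all of them. Rxrb passed there when libraries were scaled by total counts (0.14, edgeR adjusted p = 0.0409) and by limma-voom (0.11, adjusted p = 0.00852), and Rxra by limma-voom (−0.20, adjusted p = 0.00348). Both pleural calls were lost with the lane as a covariate (0.29, edgeR adjusted p = 0.278, and 0.19, edgeR adjusted p = 0.247).

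Counts over the members were set beside those over all genes tested. In AE17, 0 of 6 tested members were called at an adjusted p under 0.05 in edgeR, 2 of them (Ppard and Rxra) at an unadjusted p under 0.05, where 25.2% of all genes were. DESeq2 called Rxra (adjusted p = 0.0213), and limma-voom called Rxra (−0.25, adjusted p = 0.00547) and Ppard (adjusted p = 0.00602), where edgeR called 5.73% of all genes, DESeq2 9.87% and limma-voom 26.8%. No tested member had IPL and SC groups that did not overlap, compared with 5% of genes tested in AB1 and 0.573% in AE17. The median log2 site difference was 0.133 over the 7 tested members in AB1 and 0.131 over the 6 in AE17. Over all genes tested it was −0.002 and 0.004, and 0.188 and 0.131 when the sign was disregarded. Without the 3 libraries least like their groups the medians of the members were 0.081 and 0.026. Between models, 3 of 7 tested members were called under the skin, where 58.3% of genes were called, and 5 of 7 in the pleural cavity, where 63.4% were called. Groups that did not overlap were found for 3 of 7 members under the skin (Ppard, Ppargc1a and Ppargc1b) and 1 of 7 in the pleural cavity (Ppard), and for 30.8% and 28.1% of all genes tested.

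**Figure D4:**
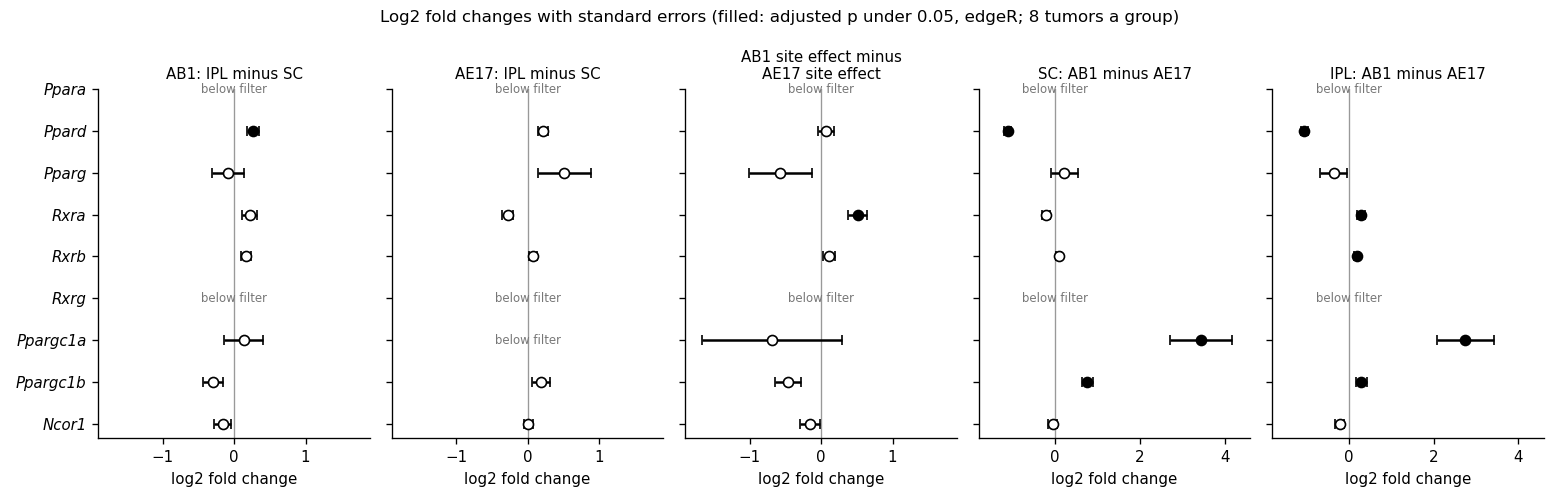
Log2 fold changes with standard errors for the members that passed the filter, in the 5 comparisons given above each panel, with filled points for an adjusted p under 0.05 in edgeR and 8 tumors a group. Ppard is called at −1.12 and −1.05 between models, and Rxra is the member called for the interaction, at 0.51.

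Target genes of the PPARs were examined from a list of 40 genes of fatty acid uptake, storage and oxidation, of which 36 had a row. In AB1, 13 of 28 tested targets rose in IPL tumors and 0 fell, with a median log2 difference of 0.314 against −0.002 over all genes tested, and in AE17 3 of 29 rose and 0 fell, with a median of 0.364 against 0.004. Of all genes tested 23% were called in AB1 and 5.73% in AE17, in both directions together. Without AB1 IPL replicates 2 and 4, 10 of 27 targets rose in AB1 and 1 fell (Ucp2), with a median of 0.223. Without AE17 IPL replicate 5, 2 of 29 rose in AE17 and 1 fell (Hadhb), and the median turned to −0.058. Pdk4, the kinase that turns pyruvate away from oxidation, had IPL tumors higher by 5.63 ± 0.815 for AB1 and by 1.63 ± 0.459 for AE17 (log2, SE, edgeR adjusted p = 0.000186 and 0.048). Its lowest, median and highest levels were 3.83, 38.2 and 161 CPM in AB1 IPL tumors against 0, 1.43 and 2.51 CPM in AB1 SC tumors, and 9.95, 16.7 and 93.2 CPM in AE17 IPL tumors against 2.32, 9.90 and 11.9 CPM in AE17 SC tumors. The AB1 groups did not overlap for Pdk4, and the AE17 groups did. The highest AE17 level was that of IPL replicate 5, and the next was 32.8 CPM. Without that tumor the AE17 difference was 0.97 ± 0.302 and no longer passed the threshold (SE, edgeR adjusted p = 0.0564).

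Plin2, which coats lipid droplets, also passed in both models, at 0.27 ± 0.092 in AB1 (SE, edgeR adjusted p = 0.0415) and 0.46 ± 0.104 in AE17 (SE, edgeR adjusted p = 0.0218). Without AB1 IPL replicates 2 and 4 the AB1 call was lost (0.13, edgeR adjusted p = 0.129). Plin2 lay between 112 and 181 CPM in AB1 IPL against 106 to 129 CPM in AB1 SC tumors, and between 236 and 350 CPM in AE17 IPL against 156 to 273 CPM in AE17 SC tumors. Fabp3, the fatty acid binding protein of heart and muscle, rose by 4.44 ± 0.665 in AB1 (SE, edgeR adjusted p = 0.000189), and Adipoq, the fat cell hormone adiponectin, by 3.26 ± 0.947 in AB1 (SE, edgeR adjusted p = 0.0198), or by 2.68 without the same 2 tumors, which did not pass (edgeR adjusted p = 0.0643). Acadl, an acyl-CoA dehydrogenase of mitochondria, rose in AE17 by 0.36 ± 0.084 (SE, edgeR adjusted p = 0.0237). Among other standard targets, Fabp4 was called in AB1 (1.45, edgeR adjusted p = 0.00609) and Cd36, a fatty acid transporter, as well (0.96, edgeR adjusted p = 0.0174). In AE17 their values were 2.00 (edgeR adjusted p = 0.102) and 0.40 (edgeR adjusted p = 0.671), and 0.40 and −0.57 without IPL replicate 5 (edgeR adjusted p = 0.403 and 0.15). Angptl4, an inhibitor of lipoprotein lipase, had values of 0.40 in AB1 (edgeR adjusted p = 0.107) and 0.47 in AE17 (edgeR adjusted p = 0.0659). Without AB1 IPL replicates 2 and 4 the AB1 value was 0.12 (edgeR adjusted p = 0.504). Without AE17 IPL replicate 5 the AE17 value was 0.40 (edgeR adjusted p = 0.0894).

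Several of these targets are also genes of muscle or fat cells, as Fabp3, Adipoq and Fabp4 are, and Adipoq is itself on the white adipocyte list. The part of muscle and fat tissue in these differences was not tested. In AE17 IPL replicate 5, Fabp4 reached 599 CPM with a group median of 33.1 CPM, and Adipoq 108 CPM with a group median of 0.489 CPM. The interaction was called for 7 of 31 targets, each with the higher site difference in AB1, where 20.5% of all genes were called. Between models 14 of 31 targets were lower and 2 higher in AB1 than in AE17 tumors under the skin, and 8 lower and 3 higher in the pleural cavity, and 58.3% and 63.4% of all genes were called there.

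**Figure D5:**
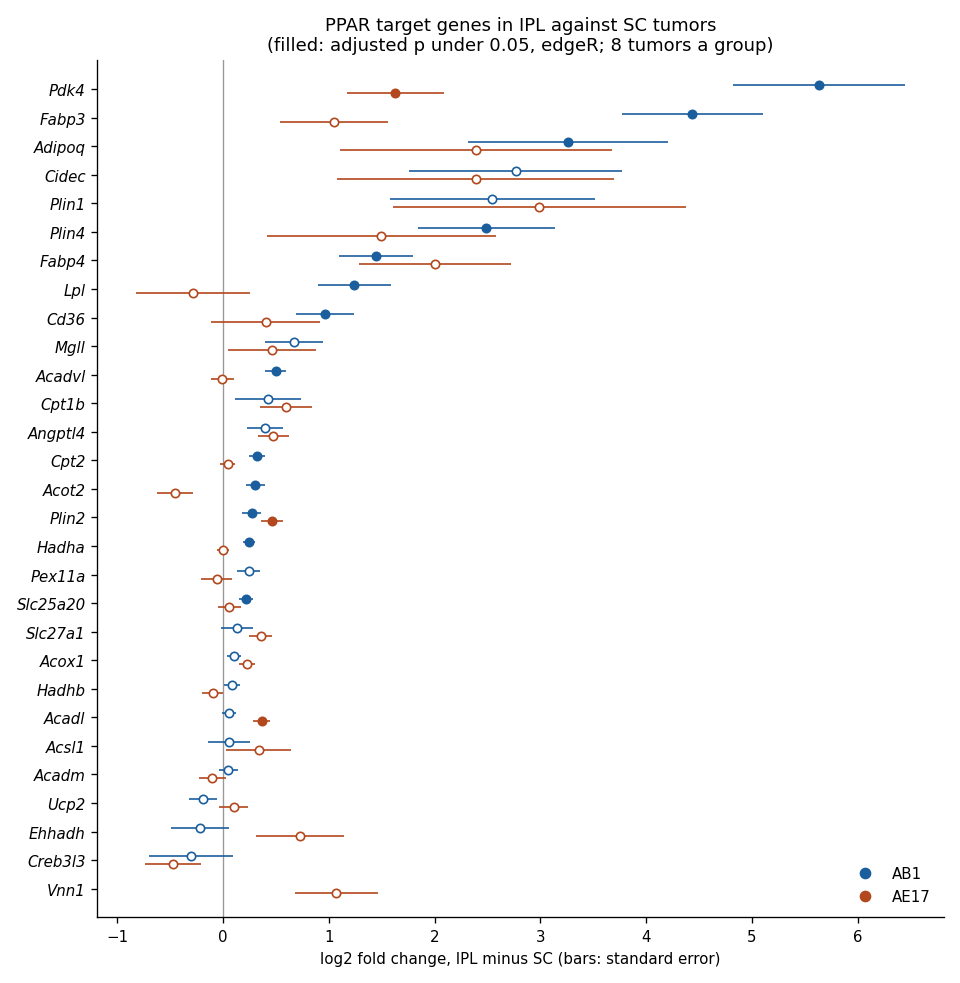
Log2 fold change of IPL against SC tumors, with standard errors, for the PPAR target genes tested in AB1 (blue) or AE17 (red), with filled points for an adjusted p under 0.05 in edgeR and 8 tumors a group. Pdk4 is the uppermost gene with 5.63 in AB1 and 1.63 in AE17, and with all tumors in the fit no target is called lower in IPL tumors.

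Genes that make, carry or degrade the retinoids that RXRs and their partners bind were taken from a list of 13 genes, 11 of which had a row. In AB1, 4 of 10 tested genes rose in IPL tumors and 1 fell, and in AE17 1 of 10 rose and 1 fell, beside 23% and 5.73% of all genes called. Without the 3 libraries least like their groups, 3 rose and 2 fell in AB1 (Crabp1 and Cyp26b1), and the AE17 counts were as before. Stra6, the retinol uptake receptor, rose in both models (1.19 ± 0.179 in AB1 and 0.55 ± 0.144 in AE17, SE, edgeR adjusted p = 0.000188 and 0.0373). Aldh1a2, which makes retinoic acid, rose in AB1 (1.31 ± 0.238, SE, edgeR adjusted p = 0.00081). Crabp1, which binds retinoic acid in the cytoplasm, fell in both (−4.22 ± 0.449 and −1.56 ± 0.310, SE, edgeR adjusted p = 1.32e-05 and 0.0143). Crabp1 lay between 0.0468 and 0.489 CPM in AB1 IPL against 0.802 to 7.85 CPM in AB1 SC tumors, and between 60.7 and 125 CPM in AE17 IPL against 69.1 to 394 CPM in AE17 SC tumors, so that the AB1 groups did not overlap.

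Of the other receptors that pair with RXR, 1 of 8 tested rose and 1 fell in AB1, and in AE17 0 of 9 rose and 1 fell, shares that can be read beside the 23% and 5.73% of all genes called. Vdr, the vitamin D receptor, fell in AB1 IPL tumors (−1.74 ± 0.202, SE, edgeR adjusted p = 2.44e-05), from between 10.6 and 26.1 CPM in SC tumors to between 4.40 and 8.63 CPM. Thra, a thyroid hormone receptor, rose in AB1 (0.70 ± 0.116, SE, edgeR adjusted p = 0.000416), and Rarg, a retinoic acid receptor, fell in AE17 (−0.41 ± 0.1, SE, edgeR adjusted p = 0.029). In AB1, Carm1 was the sole one of 12 other coactivators called (0.26 ± 0.081, SE, edgeR adjusted p = 0.0294). Of 8 factors through which PGC-1 acts, Mef2c alone, a muscle transcription factor, was called in AB1 (1.13 ± 0.256, SE, edgeR adjusted p = 0.00399). In AE17 none of the 13 and 8 genes tested from these lists was called by edgeR at an adjusted p under 0.05.

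The tumor to tumor pattern of each member was compared with that of 11345 other genes, as Spearman's rho of log2 CPM over 32 tumors after the mean of each group was taken off, so that tumors with an unlike tissue content or library weigh on many genes at once. Pparg was most like Ms4a1 (0.72), Timd4 (0.69) and Pou2f2 (0.68), of which Ms4a1 and Pou2f2 are B cell genes and Timd4 a gene of resident macrophages. Ppard was most like Gata4 (0.83), Nckap5l (0.82) and Tspan9 (0.81), Rxra most like Slco2b1 (0.81), Itsn1 (0.80) and Ndufb2 (0.80), and Rxrb most like Rbm14 (0.80), Rbm15b (0.78) and Gfod2 (0.78). For the coregulators these were Ghr (0.81), Dnajb4 (0.79) and Gpr165 (0.72) with Ppargc1a, Bccip (0.62) and Ttf2 (0.62) with Ppargc1b, and Ankrd17 (0.94), Ash1l (0.94) and Bdp1 (0.93) with Ncor1. Among the members themselves the values ran from −0.47 between Ppard and Ppargc1a to 0.39 between Ppargc1b and Ncor1.

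Promoter sequences from RefSeq (GRCm38.p6), 250 bases before to 50 bases after each transcript start, were read for 8 members with 14 windows, and Ppargc1b was not used. Those of the least and the most variable member tested over all 32 tumors are shown by their last 100 bases before the start, since they differ in the number of CG pairs, which are printed in capitals, 5′ to 3′ on the strand of the gene. The Rxrb stretch lies at chr17:34031712-34031811 on the plus strand and the Ppargc1a stretch at chr5:51567726-51567825 on the minus strand.
Rxrb: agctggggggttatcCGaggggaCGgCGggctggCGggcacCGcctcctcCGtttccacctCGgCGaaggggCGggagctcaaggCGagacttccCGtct
Ppargc1a: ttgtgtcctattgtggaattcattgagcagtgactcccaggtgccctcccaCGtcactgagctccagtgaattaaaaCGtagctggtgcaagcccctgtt
These stretches hold 11 and 2 CG pairs, and the whole windows 37 and 5, against a median of 7 over 32851 windows (quartiles 3 and 20). Another window of Rxrb holds 47. The genes stand at percentiles 6.2 and 98.8 of variation between tumors of a group. The members do not follow 1 order, since Pparg, at percentile 91.6 of variation, has windows with 44, 13 and 2 CG pairs. The receptor half-site AGGTCA, searched on both strands, was found in 4 of the 14 windows of members and in 16.3% of all windows. It was found in 10 of the 36 windows of target genes. The direct repeat bound by PPAR and RXR pairs, searched in the strict form AGGTCANAGGTCA on both strands, was found in 0 of 14 windows of members, 0 of 36 windows of 29 target genes and 0.0396% of all windows, which leaves out the degenerate sites that such pairs are known to bind.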

How the data were processed

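RNA-seq of 32 tumors was analysed. The authors checked 50 bp single-end reads with FastQC, mapped them with HISAT2 2.0.4 to the mouse genome and deposited raw counts of reads per gene from SummerizeOverlaps, without normalization. Whether strand was used in counting is not given in the sources used here. Groups and replicate numbers came from sample titles, and lanes from the names of alignments. Each library is from 1 mouse per the study's methods. No 2 libraries of a group were alike within sampling noise (112 pairs, chi-square over degrees of freedom 5.92 to 148).

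Counts were tested in R 4.3.3 with edgeR 4.0.16 (filterByExpr, TMM, robust quasi-likelihood F test, two-sided, Benjamini-Hochberg adjustment over all genes tested, threshold 0.05). Sites were compared within the 16 tumors of a model, and models and the interaction in 1 fit of 32 tumors. Genes below the filter were compared by exact two-sided permutation of log2 CPM (prior count 2) over 12870 splits. CPM use TMM factors, and RPKM use union exon lengths of GENCODE M21 on GRCm38, which matched 39495 of 39676 identifiers. This annotation was chosen because its identifiers match the table, and the build the authors mapped to was not settled. In a simulation of the AB1 comparison with 14942 genes, 98% of genes changed by a log2 of 2 and 80.6% of those changed by 1 were recovered, with 9 false calls in all. Alternatives were DESeq2 1.42.0, limma-voom with quality weights (limma 3.58.1), other normalizations and filters, a threshold of 0.01, the replicate number as a block, the lane, and leaving out each tumor. Fits without the 3 libraries least like their groups, and the lane-only permutation tests, were added after seeing the data.

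The genes examined and all lists were chosen with earlier results of these data known. Named are all members, up to 3 called genes of each list and site comparison with the largest changes, 5 standard PPAR targets (Pdk4, Angptl4, Plin2, Fabp4 and Cd36) and the 3 genes most like each member with a mean of at least 1 CPM. Ucp1, Elovl3, Upk3b, Lrrn4, Ucp2, Hadhb, Cyp26b1, Myh6, Myl2, Myl3, Myl7 and Nppa were named after their values were seen. Of the genes this rule gives, 2 are not reported here. Plots were drawn with matplotlib 3.10.9.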

Additional observations from a re-analysis of the deposited data

Results flagged for a closer look

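By Dixon's test 8 values stood apart from the other 7 tumors of their group, among 36 combinations of gene and group. For normally distributed values chance alone would give about 1 in 20. The values here are CPM, some of genes close to the limit of detection, and 4 of the 8 come from 1 library. This share is therefore no exact measure of chance here. AE17 IPL replicate 5 gave 4 of them, with Ppara at 2.284 CPM (next 0.245 CPM), Pparg at 20.55 CPM (next 7.18 CPM), Rxrg at 1.562 CPM (next 0.178 CPM) and Ppargc1a at 4.207 CPM (next 0.237 CPM). That tumor held the highest sums of brown adipocyte, white adipocyte and cardiac muscle markers of its group. AB1 IPL replicate 4 gave Rxra at 116.6 CPM (next 83.6 CPM) and Rxrb at 93.96 CPM (next 75.9 CPM). The others were Rxrb in AE17 SC replicate 8 at 69.01 CPM (next 59.1 CPM) and Ppargc1b in AE17 IPL replicate 7 at 2.851 CPM, the lowest of its group (next 3.985 CPM). The site difference of Rxra was higher in AB1 than in AE17 by 0.514 on the log2 scale, as tested by the interaction term in edgeR (adjusted p = 0.00722).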

How the results depend on the processing

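Genes called for site in AE17 (840) depended most on the processing. They numbered 550 without a filter, 1774 by DESeq2, 3925 by limma-voom with quality weights, 1324 with all 32 tumors in 1 fit, 1263 without the 3 libraries least like their groups, and 316 to 2066 when 1 tumor was left out. The count passed 1.5 times without SC replicates 1 (2066) and 3 (1546) and IPL replicate 5 (1263). It fell by that factor without IPL replicates 2, 3, 4, 7 and 8 (477, 502, 316, 321 and 509) and SC replicates 2, 5, 6 and 7 (472, 356, 503 and 396). At an adjusted p under 0.01, 1903 genes were called for site in AB1, 75 in AE17 and 1513 for the interaction. With the lane as a covariate, 386, 1 and 117 were called, and 5268 and 5008 between models under the skin and in the pleural cavity. Within lane 3, 169 were called in AB1, and within lane 1, 14 in AE17. The design confounds most of the lane with site and model, so that they cannot be told apart.

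Signs of uncalled values turned in places. Pparg turned to −0.049 (DESeq2), −0.007 (limma-voom) and −0.052 (without the 3 libraries) for site in AE17, to 0.194 (lane as covariate) and 0.151 (lane 3) in AB1, to 0.075 for the interaction and −0.258 between models under the skin with the lane, and to 0.176 (limma-voom) and 0.149 (without the 3 libraries) between models in the pleural cavity. The interaction of Ppargc1a turned to 1.487 (limma-voom), 2.576 (lane) and 2.327 (without the 3 libraries, edgeR adjusted p = 0.0211). Ncor1 turned to −0.029 (lane, and lane 1 only) and −0.003 (without the 3 libraries) in AE17 and to 0.025 for the interaction, where Ppard turned to −0.017, both without the 3 libraries. Without AE17 IPL replicate 5, Cd36 turned to −0.572 for site in AE17. Ppargc1a was at −0.263 there by mean log2 CPM and turned to 0.839 in an edgeR fit without a filter. With 1 tumor left out, the ranges that crossed 0 were −0.025 to 0.044 for Ncor1 and −0.052 to 0.622 for Pparg in AE17, −0.504 to 0.200 for Pparg between models in the pleural cavity, and −1.075 to 2.038 for the interaction of Ppargc1a. The pleural call of Ppargc1b between models was lost without any of AB1 IPL replicates 3, 4, 5, 6 and 8, AE17 IPL replicates 1, 2, 4, 5, 6 and 7, AB1 SC replicates 2, 3, 7 and 8 or AE17 SC replicates 2, 3, 4, 5 and 7 (adjusted p up to 0.118). The cause was not tested.

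Replicate numbers did not meet the rule for pairing, a correlation over 0.1 in every pair, which 0 of 8 pairs passed in AB1 and 5 of 8 in AE17. The correlation of deviations between tumors of the same number ran from −0.288 to −0.005 in AB1 and from −0.226 to 0.27 in AE17, and 0 and 3 of 8 numbers were their own best match. A fit with the replicate block called 2263 genes in AB1, 661 in AE17, 2823 for the interaction, and 8943 and 9706 between models. Among members the block ended the calls of Ppard in AB1 (0.252, edgeR adjusted p = 0.102) and Ppargc1b in the pleural cavity (0.295, edgeR adjusted p = 0.054).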

Other observations

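Lists of other cell types the tumors could hold gave these counts for site, beside 23% of all genes called in AB1 and 5.73% in AE17 in both directions together. Of cardiac muscle markers, 1 of 3 tested rose in AB1 IPL tumors (Tnnt2, 3.11) and 2 fell (Tnni3, −0.88, and Nppb, −0.86). In AE17 1 of 3 rose (Tnnt2, 1.49). The summed level of the 9 cardiac markers with a row had a median of 35.0 CPM in AB1 IPL against 6.35 CPM in AB1 SC tumors. Some markers of this list were not tested. Of these, Myh6, Myl2 and Myl3 had medians of 7.37, 6.62 and 1.37 CPM in AB1 IPL tumors. In AB1 SC tumors their medians were 0.177, 0.0522 and 0.0269 CPM. Nppa, also untested, had medians of 0.0840 CPM in AB1 IPL and 0.0254 CPM in AB1 SC tumors, and Myl7 a median of 0 CPM in AB1 IPL tumors. Both markers tested from the brown adipocyte list rose in AB1 (Cox8b, 4.00, and Cox7a1, 1.34), and neither of the 2 was called in AE17 by edgeR. Striated muscle also uses Cox8b and Cox7a1, and 10 of 11 skeletal muscle markers rose in AB1 as well. Ucp1 and Elovl3, the other markers of the list, had too few reads to be tested, with medians of 0.187 and 0.165 CPM in AB1 IPL tumors against 0.0544 and 0.173 CPM in AB1 SC tumors. Of white adipocyte markers, Adipoq of 5 tested was called in AB1 and 0 of 6 in AE17. Of macrophage markers, 3 of 9 fell in AB1 (Mrc1, −0.94, C1qa, −0.44, and Cd68, −0.33) and 0 of 9 were called in AE17. Of alveolar macrophage markers, 3 of 5 fell in AB1 and 1 of 4 in AE17 (Ear1, −2.21), and of lung epithelium markers 2 of 3 fell in AB1 and 1 of 3 in AE17 (Hopx, −0.60). Of epidermis markers, Trp63 of 4 tested rose in AB1 (1.00) and 0 of 4 were called in AE17. Of mesothelial markers, 0 of 2 tested were called in either model.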
